A study of Mus musculus with 10 samples.

Results

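Liver transcripts for lipoprotein assembly, lipoprotein remodelling and sterol export were compared between mice lacking Etnppl and wild-type mice. The set holds 10 genes, Mttp, Tm6sf2, Lcat, Lipc, Pltp, Scarb1, Abca1, Abcg5, Abcg8 and Nr1h3, chosen by gene symbol from the 47729 genes of the table, and each symbol stands on a single row. All 10 were among the 12395 genes tested, those averaging 0.5 FPKM or more. FPKM counts sequenced fragments relative to transcript length and to the fragments mapped in the library, so levels of different genes can be set side by side per length.

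The 10 libraries of poly(A)-selected liver RNA came from female mice, 5 from mice with a knockout (KO) of Etnppl in the whole body and 5 from wild-type (WT) mice. Both genotypes were fed chow over 8 weeks, followed by 10 weeks on a high-fat diet (45% of kilocalories as fat), and no chow-fed livers were compared. The sources used here do not give the strain, the age at the start or which part of the gene was deleted. The labels number the samples but do not tie each to its own mouse, so the p-values speak only to the spread among these libraries, which may be technical. Etnppl, which encodes the enzyme that breaks down phosphoethanolamine, lay between 27.57 and 56.55 FPKM in WT and between 7.36 and 10.19 FPKM in KO, without overlap between the groups.

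The liver packages triglyceride and cholesterol into very low density lipoprotein (VLDL) inside the endoplasmic reticulum and secretes it. In plasma, lipases and transfer proteins remodel VLDL and high density lipoprotein (HDL), and HDL returns cholesterol to the liver through a surface receptor. Hepatocytes also export sterol, across the sinusoidal membrane onto apolipoprotein A-I or across the canalicular membrane into bile, and the oxysterol-sensing nuclear receptor LXR alpha switches on several of the genes involved. In RNA from whole tissue, fewer cells of a type and less RNA per cell cannot be told apart.

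No member passed an adjusted p of 0.05 (0 of 10, limma), where 0.0645% of all genes tested did (0.0323% higher in KO and 0.0323% lower). Scarb1 stood nearest to the threshold, at a 1.2-fold higher level in KO, and it was the 1 member of 10 with an unadjusted p under 0.05, against 11.8% of all genes tested. The groups overlapped for each of the 10 members, and 2.79% of all genes tested had groups that did not overlap. By sign alone, 8 members were higher and 2 lower in KO (median log2 fold change 0.07), beside 34.9% higher, 65.1% lower and a median of -0.05 over all genes tested. With median-of-ratios scaling, which moved the median of all genes tested to -0.0040 and that of the members to 0.12, all 10 were higher. Unadjusted p values under 0.05 were then found for Scarb1, Nr1h3 and Tm6sf2, beside 1287 of all 12395 genes tested (655 higher and 632 lower), and 0 members passed the adjusted threshold. Quantile normalization moved the median of all genes tested to -0.0056 but kept 8 members higher and 2 lower, with Scarb1 and Tm6sf2 under an unadjusted p of 0.05. Rescaling to a fixed sum, or without the 50 highest genes, also kept 8 higher and 2 lower. None of the 10 confidence intervals (95%) reached 1.5-fold in either direction.

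**Figure D1:**
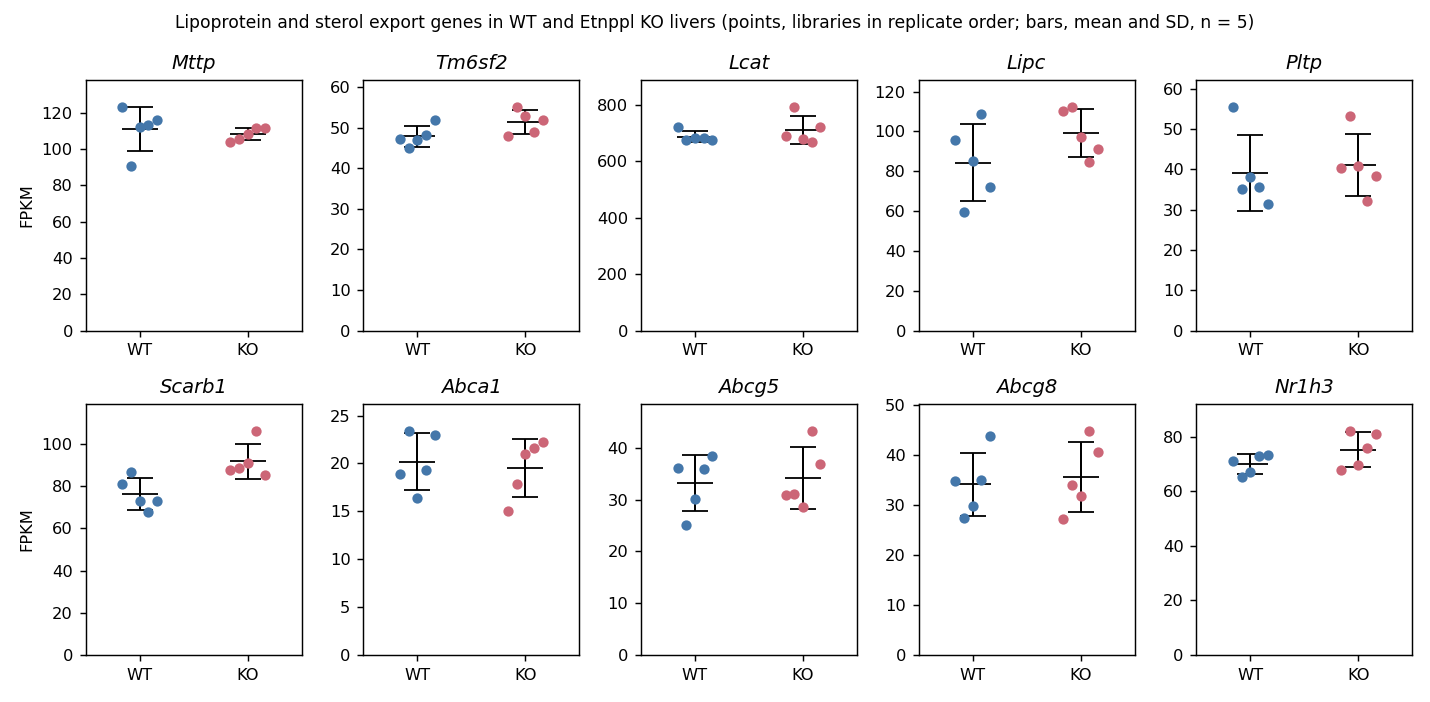
FPKM of the 10 genes in each WT (blue) and KO (red) library, 1 panel per gene with its own linear axis from 0, points in replicate order, and the mean and SD of 5 libraries in black. Scarb1 shows 4 of 5 KO points above every WT point, and in the other panels the points of both groups intermix more.

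Ordered by WT level, Lcat stood alone at 687 ± 19.3 FPKM (mean ± SD, n = 5 here and below), above the highest library of every other member. Mttp at 111 ± 12.3, Lipc at 84.2 ± 19.3, Scarb1 at 76.3 ± 7.59 and Nr1h3 at 69.9 ± 3.62 FPKM followed, and each of these overlapped the next in the range of its WT libraries. Tm6sf2 at 47.8 ± 2.54 FPKM lay below Nr1h3 without overlap, and it overlapped Pltp at 39.2 ± 9.49, which overlapped Abcg8 at 34.1 ± 6.29, itself overlapping Abcg5 at 33.1 ± 5.42 FPKM. Abca1 was lowest, at 20.2 ± 2.96 FPKM and without overlap with Abcg5. The spread among WT libraries also differed between members. Lcat had a coefficient of variation of 2.81%, at percentile 1.51 of the tested genes, whereas Pltp had 24.2% and Lipc 22.9%, and the median over all tested genes was 12.1%.

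Mttp and Tm6sf2 act at the assembly of VLDL. Mttp (ENSMUSG00000028158, chromosome 3, 138089854 to 138144968, minus strand, GRCm38 as for all coordinates here) encodes the large subunit of the microsomal triglyceride transfer protein, which loads lipid onto apolipoprotein B. It was at 123.49, 90.6, 112.24, 113.44 and 116.32 FPKM in WT replicates 1 to 5 and at 104.12, 105.74, 108.24, 111.87 and 111.62 FPKM in KO replicates 1 to 5. All 5 KO libraries lay inside the WT range, and the KO libraries varied by 3.19% against 11.1% in WT (coefficients of variation; the difference in spread was not tested). The log2 fold change was -0.03 (95% CI -0.20 to 0.14, limma adjusted p = 0.908), an interval that holds changes from 0.871 to 1.1 times the WT level. Its sign turned with median-of-ratios scaling, to 0.02. Mttp exons share 457 bases with Trmt10a on the opposite strand, a gene at 2.14 in WT and 2.06 FPKM in KO.

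Tm6sf2 (ENSMUSG00000036151, chromosome 8, 70072924 to 70080066, plus strand) encodes a membrane protein of the endoplasmic reticulum and Golgi that is needed for full lipid loading of VLDL. Its WT values were 47.1, 45.01, 46.95, 48.15 and 51.89 FPKM, and its KO values were 47.98, 55.16, 52.81, 49 and 51.85 FPKM. All 5 KO libraries exceeded the WT mean and 2 exceeded the highest WT library. The difference was 0.10 on the log2 scale (95% CI -0.03 to 0.23, limma adjusted p = 0.54), and the exact two-sided permutation test gave p = 0.0714, where 5 against 5 libraries can reach 0.00794.

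Lcat, Lipc and Pltp encode secreted proteins that remodel lipoproteins in plasma. Lcat (ENSMUSG00000035237, chromosome 8, 105939551 to 105943382, minus strand) encodes lecithin-cholesterol acyltransferase, which esterifies cholesterol on HDL with a fatty acid taken from phosphatidylcholine. It was at 721.39, 674.18, 681.21, 683.1 and 676.94 FPKM in WT and at 689.89, 793.49, 680.21, 668.53 and 722.14 FPKM in KO. KO replicate 2 was the highest of all 10 libraries and KO replicate 4 the lowest, so the KO range enclosed the WT range. The log2 fold change was 0.05 (95% CI -0.08 to 0.18, limma adjusted p = 0.803), the narrowest interval among the 10 genes together with that of Tm6sf2.

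Lipc (ENSMUSG00000032207, chromosome 9, 70798128 to 70952226, minus strand) encodes hepatic lipase, which hydrolyses triglyceride and phospholipid of remnants and HDL. It was at 95.64, 59.53, 85.29, 108.7 and 72.08 FPKM in WT and at 110.08, 112.46, 97, 84.79 and 91.36 FPKM in KO. The KO libraries all lay above the WT mean, and 2 of them lay above every WT library. The log2 fold change of 0.26 was about as large as that of Scarb1, but its interval was wider (95% CI -0.06 to 0.57, limma adjusted p = 0.519; exact two-sided permutation p = 0.175). It was 0.14 without WT replicate 2, the lowest library, and 0.36 without WT replicate 4, the highest WT library.

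Pltp (ENSMUSG00000017754, chromosome 2, 164839518 to 164857711, minus strand) encodes the phospholipid transfer protein, which moves phospholipid between lipoproteins, and is a known LXR target. Its WT values were 55.58, 35.14, 38.05, 35.61 and 31.39 FPKM, and its KO values were 40.29, 53.25, 40.88, 32.07 and 38.38 FPKM. WT replicate 1 and KO replicate 2 stood well above the other 8 libraries, and every KO value lay inside the WT range. The log2 fold change was 0.07 (95% CI -0.27 to 0.41, limma adjusted p = 0.886). It was 0.21 without WT replicate 1 and -0.024 without KO replicate 2. Pltp exons share 495 bases with Ctsa on the opposite strand, which was at 99.6 in WT and 93.1 FPKM in KO.

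Scarb1 (ENSMUSG00000037936, chromosome 5, 125277087 to 125341094, minus strand) encodes scavenger receptor class B type 1, the HDL receptor that takes up cholesteryl ester without degrading the particle. It was at 81, 86.94, 72.96, 67.7 and 73.09 FPKM in WT and at 87.76, 88.82, 90.82, 106.21 and 85.33 FPKM in KO. In KO, 4 of 5 libraries lay above every WT library, and WT replicate 2 lay above KO replicate 5, so the groups overlapped by that pair alone. Means were 76.3 ± 7.59 in WT and 91.8 ± 8.30 FPKM in KO, a log2 fold change of 0.27 (95% CI 0.09 to 0.44), the only interval among the 10 that did not include 0. The gene was not called over all genes (limma adjusted p = 0.223, unadjusted p = 0.00623), ranking 345 of the 12395 genes tested by p, and the exact two-sided permutation test gave p = 0.0159. Across 21 refits at other settings or without a library the log2 fold change stayed between 0.21 and 0.32, and the adjusted p between 0.134 and 0.363.

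Hepatocytes and sinusoidal endothelial cells both express Scarb1, so their markers are given beside it. Over all genes tested, 34.9% were higher in KO and 65.1% lower. Of 9 hepatocyte markers 8 were higher in KO and 0 were called, with sums of 62628 to 70345 FPKM in WT and 67031 to 77396 FPKM in KO. Of 9 endothelial markers 3 were higher and 6 lower, with sums of 197 to 222 FPKM in WT and 184 to 219.6 FPKM in KO. Kupffer cell and macrophage markers, relevant to Abca1 and Pltp, which macrophages also express, were lower in KO for 10 of 11 genes, none of them called, with sums of 433 to 598 FPKM in WT and 384 to 559 FPKM in KO. Stellate cell and fibroblast markers were lower in KO for 9 of 10 genes, and lymphocyte markers for 5 of 7. Cholangiocyte markers were lower for 3 of the 4 genes tested, and 0 genes were called in these lists. None of these markers was at 0 in all libraries, and their part in the values of the 10 genes was not tested.

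**Figure D2:**
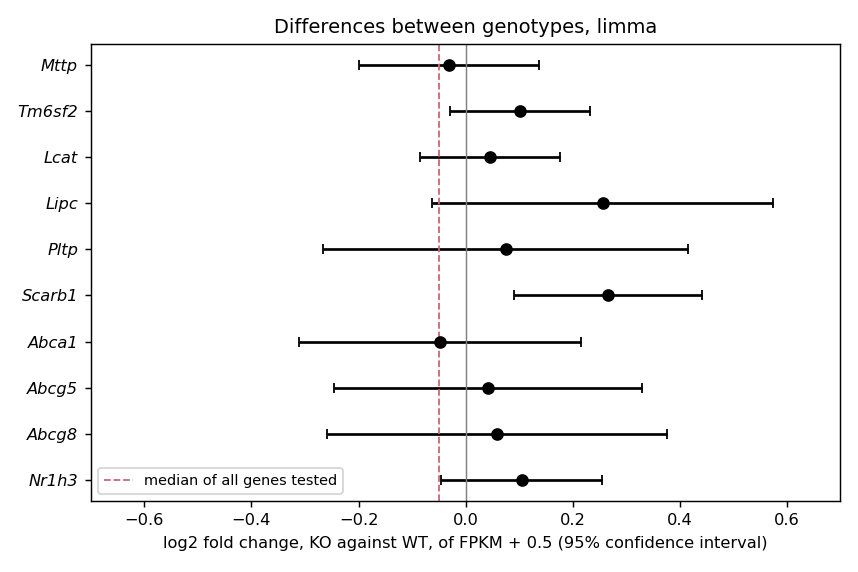
Log2 fold change of each gene in KO against WT (points) with its 95% confidence interval from limma (bars), on log2(FPKM + 0.5), n = 5 libraries per genotype; the dashed line marks the median of all genes tested, -0.05. The Scarb1 interval, 0.09 to 0.44, lies to the right of 0, and the other 9 intervals include 0.

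Abca1, Abcg5 and Abcg8 encode ATP-driven sterol exporters. Abca1 (ENSMUSG00000015243, chromosome 4, 53030787 to 53159895, minus strand) moves cholesterol and phospholipid onto lipid-poor apolipoprotein A-I, the first step of HDL formation. It was at 18.87, 23.4, 16.39, 19.33 and 22.97 FPKM in WT and at 15.03, 17.9, 20.96, 21.6 and 22.25 FPKM in KO. The ranges largely coincided, with KO replicate 1 below every WT library. The log2 fold change was -0.05 (95% CI -0.31 to 0.22, limma adjusted p = 0.91), and its sign turned with median-of-ratios scaling, to 0.0037.

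Abcg5 (ENSMUSG00000040505, chromosome 17, 84658234 to 84683011, minus strand) and Abcg8 (ENSMUSG00000024254, chromosome 17, 84676302 to 84700333, plus strand) encode the partners of a heterodimer, sterolin-1 and sterolin-2, that secretes cholesterol and plant sterols into bile. The genes point away from each other. In RefSeq (GRCm38.p6) their neighbouring starts lie at 84683011 for Abcg5 and 84683121 for Abcg8, with 109 bases between them. Another RefSeq start of Abcg8 lies at 84676302, inside Abcg5. The stretch between the neighbouring starts is shown because it lies upstream of both, and its part in the levels of these genes was not tested. It is written on the plus strand, 5′ to 3′ toward Abcg8, at chr17:84683012-84683120, and capitals mark matches to the motifs searched.
Abcg5 to Abcg8: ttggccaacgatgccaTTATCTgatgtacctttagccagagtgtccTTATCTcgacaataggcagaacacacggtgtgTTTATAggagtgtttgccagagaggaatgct

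The first 2 capital runs, at positions 17 to 22 and 47 to 52 counted from the 5′ end, are the motif of GATA factors, AGATAA, on the minus strand. The last, at positions 79 to 84, is TATAAA, the TATA box motif, also on the minus strand. Among the 109 bases before each of 32851 RefSeq starts, searched on both strands, 3.98% held AGATAA, 0.186% held it at least 2 times and 5.90% held TATAAA. The other letters searched had no match here. They were the nuclear receptor motif AGGTCA, alone or repeated in the same direction with 4 bases (the LXR type) or 1 base between, the LRH-1 motif CAAGGTCA, which contains AGGTCA, the sterol regulatory element TCACCCCAC, the E-box CACGTG, the GC box GGGCGG and the CCAAT box. Over the 250 bases before the starts of the 8 members with a RefSeq promoter entry, AGGTCA was found only before the inner start of Lipc. Of all promoters 14.0% held it. The repeat with 4 bases between was found in none of the 8, with 0.0152% of all promoters holding it. Only exact copies were counted, so sites that depart from these letters were not looked for, and their absence is not shown. The GATA genes Gata4 and Gata6 were at 8.27 ± 0.833 and 3.76 ± 0.297 FPKM in WT and at 8.07 ± 1.66 and 3.77 ± 0.399 FPKM in KO (limma adjusted p = 0.911 and 0.998). The part of GATA factors in the levels of Abcg5 and Abcg8 was not tested.

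Abcg5 was at 36.09, 25.16, 30.09, 35.95 and 38.42 FPKM in WT and at 30.91, 31.03, 28.54, 43.25 and 36.9 FPKM in KO. Abcg8 was at 34.77, 27.41, 29.74, 34.99 and 43.76 FPKM in WT and at 27.12, 33.91, 31.88, 44.82 and 40.55 FPKM in KO. KO replicate 4 was the highest library for both genes, and WT replicate 2 was the lowest for Abcg5 and the second lowest for Abcg8. The genotypes intermixed for both. Log2 fold changes were 0.04 for Abcg5 (95% CI -0.25 to 0.33, limma adjusted p = 0.93) and 0.06 for Abcg8 (95% CI -0.26 to 0.38, limma adjusted p = 0.908), and both changed sign without WT replicate 2 (-0.052 and -0.015) and without KO replicate 4 (-0.047 and -0.029).

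The Abcg5 to Abcg8 ratio of FPKM was 0.975 ± 0.072 in WT (0.878 to 1.04) and 0.965 ± 0.101 in KO (0.895 to 1.14, n = 5 each). The difference in the log2 ratio, KO minus WT, was -0.017 with an SE of 0.079 (exact two-sided permutation p = 0.817). Across the 10 libraries Abcg5 and Abcg8 correlated, with Pearson's r = 0.886 (permutation p = 4e-04, adjusted p = 0.002 over the 5 relations computed) and Spearman's rho = 0.903 (permutation p = 0.00083, adjusted p = 0.00415). Without the 2 libraries farthest from the Abcg5 median, WT replicate 2 and KO replicate 4, r was 0.81, and with genotype means removed it was 0.885. Values of a library share its scaling, and with median-of-ratios scaling r was 0.882 (permutation p = 0.00069, adjusted p = 0.00345). The exons of both genes share 82 bases on opposite strands through an Abcg8 transcript that starts inside Abcg5, and the part of these bases in the correlation was not tested.

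**Figure D3:**
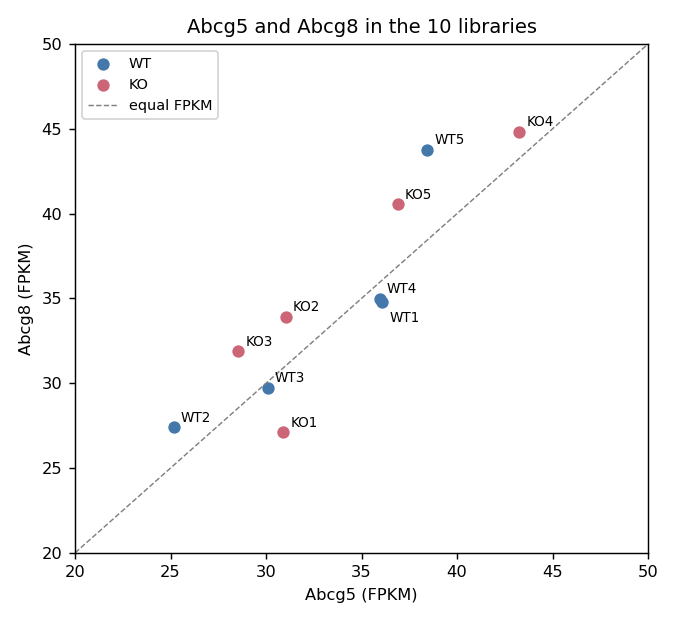
Abcg8 against Abcg5 in FPKM, 1 point per library (WT blue, KO red), both axes linear from 20 to 50; the dashed line marks equal FPKM. The points run along the line from WT2, at 25.16 and 27.41 FPKM, to KO4, at 43.25 and 44.82 FPKM, with both genotypes along its length.

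Nr1h3 (ENSMUSG00000002108, chromosome 2, 91184061 to 91202834, minus strand) encodes LXR alpha, the oxysterol receptor that activates Abca1, Abcg5, Abcg8 and Pltp together with a retinoid X receptor. It was at 71.02, 65.23, 66.88, 73.02 and 73.14 FPKM in WT and at 67.78, 82.09, 69.62, 75.92 and 81.01 FPKM in KO. The upper 3 KO libraries lay above every WT library and the other 2 inside the WT range. The log2 fold change was 0.10 (95% CI -0.05 to 0.25, limma adjusted p = 0.582), and the exact two-sided permutation test gave p = 0.159. Nr1h2, which encodes LXR beta, was at 32.8 ± 2.25 in WT and 33.0 ± 3.59 FPKM in KO.

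Against its target genes across the 10 libraries, Nr1h3 gave r = 0.565 with Abcg5 (permutation p = 0.0885, adjusted p = 0.147) and r = 0.68 with Abcg8 (permutation p = 0.0329, adjusted p = 0.0823). The rank correlations with both passed, with rho = 0.733 for Abcg5 (permutation p = 0.0208) and 0.745 for Abcg8 (permutation p = 0.0178), each at adjusted p = 0.0346. Without the 2 libraries farthest from the Nr1h3 median, KO replicates 2 and 5, r was 0.937 with Abcg5 and 0.924 with Abcg8. With KO replicate 2 alone left out r rose to 0.80 and 0.85 (adjusted permutation p = 0.0157 and 0.00875). With WT replicate 2 alone left out r fell to 0.40 with Abcg5 and 0.60 with Abcg8 (adjusted permutation p = 0.354 and 0.226). These relations therefore shift with single libraries in both directions. Abca1 (r = 0.195, rho = 0.115, permutation p = 0.587 and 0.757) and Pltp (r = 0.203, rho = 0.0545, permutation p = 0.582 and 0.891) gave no relation past the threshold, with adjusted p = 0.587 for r and 0.891 for rho in both. Without the same 2 libraries r was 0.308 for Abca1 and -0.249 for Pltp, and with genotype means removed the 4 values of r were 0.599 for Abcg5, 0.72 for Abcg8, 0.295 for Abca1 and 0.153 for Pltp.

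Other genes of the pathway were taken from 8 lists that hold 111 different genes, 109 of them tested. None passed an adjusted p of 0.05 (smallest limma adjusted p = 0.104), 50 were higher and 59 lower in KO, and the median log2 fold change was -0.04. At an unadjusted p under 0.05 there were 8 higher and 6 lower, where 2.69% and 9.07% of all genes tested were. These counts and shares are without rescaling. With median-of-ratios scaling 655 of the 12395 genes tested were higher and 632 lower at that p, so the shares depend on the scaling. The groups did not overlap for 2 of the 109, Srebf2 and Apom, where they did not for 2.79% of all genes tested.

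In VLDL assembly and export from the endoplasmic reticulum, 5 of 18 genes were higher and 13 lower, with a median of -0.06. Smlr1, which encodes a small membrane protein of hepatocytes, was at 27.7 ± 3.71 in WT and 22.4 ± 3.20 FPKM in KO (limma adjusted p = 0.295). The GTPase gene Sar1a of the coat that buds vesicles from the endoplasmic reticulum was at 28.6 ± 1.38 and 26.0 ± 1.74 FPKM (limma adjusted p = 0.429). Mia3, which encodes the cargo receptor TANGO1, was at 121 ± 7.93 and 110.2 ± 7.24 FPKM (limma adjusted p = 0.453).

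Among lipases and their regulators 7 of 12 genes were higher and 5 lower. Angptl4, an inhibitor of lipoprotein lipase, was at 90.9 ± 19.6 in WT and 116 ± 12.3 FPKM in KO (limma adjusted p = 0.33), and the lysosomal acid lipase gene Lipa at 96.5 ± 8.57 and 85.9 ± 3.76 FPKM (limma adjusted p = 0.382). Apoc1, which encodes an apolipoprotein that inhibits lipases, was at 8130 ± 593 and 7406 ± 872 FPKM (limma adjusted p = 0.548). Among the 12 tested of 13 HDL proteins 6 were higher and 6 lower. Apom, which carries sphingosine-1-phosphate on HDL, lay between 109.84 and 136.85 FPKM in WT and between 145.76 and 155.87 FPKM in KO (log2 fold change 0.21, 95% CI 0.07 to 0.36, limma adjusted p = 0.228). Bmp1, a protease that matures apolipoprotein A-I, was at 31.0 ± 1.86 and 33.96 ± 1.996 FPKM (limma adjusted p = 0.448), and Apoa1 itself at 9851 ± 1951 and 11798 ± 1784 FPKM (limma adjusted p = 0.459).

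Of 14 lipoprotein receptors and adaptors 8 were higher and 6 lower. Lsr, a receptor for lipoprotein remnants, was at 60.0 ± 4.16 and 66.9 ± 4.92 FPKM (limma adjusted p = 0.403), and P2ry13, a nucleotide receptor linked to HDL uptake, at 2.90 ± 0.536 and 2.30 ± 0.333 FPKM (limma adjusted p = 0.426). Pdzk1, the adaptor that holds the Scarb1 protein at the hepatocyte surface, was at 36.1 ± 4.21 and 40.5 ± 4.31 FPKM (limma adjusted p = 0.521). Among 13 tested genes of intracellular sterol handling 5 were higher and 8 lower. Nceh1, a cholesteryl ester hydrolase, was at 12.6 ± 2.73 and 9.91 ± 0.604 FPKM (limma adjusted p = 0.337), the acyltransferase Soat1 at 2.35 ± 0.584 and 1.82 ± 0.610 FPKM (limma adjusted p = 0.542) and the lysosomal cholesterol exporter Npc1 at 31.6 ± 3.42 and 33.9 ± 1.94 FPKM (limma adjusted p = 0.641).

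Abcg5 and Abcg8 work at the canaliculus beside the bile salt and phosphatidylcholine transporters. Of 5 genes listed as partners of Abcg5 and Abcg8, which include enzymes of bile acid synthesis, 3 were higher and 2 lower in KO. The bile salt export pump gene Abcb11 was at 94.9 ± 9.35 in WT and 113 ± 8.98 FPKM in KO (log2 fold change 0.25, 95% CI 0.08 to 0.42, limma adjusted p = 0.232), and Cyp27a1 of bile acid synthesis at 165 ± 26.3 and 208 ± 27.3 FPKM (limma adjusted p = 0.26). Abcb4, the phosphatidylcholine floppase, was at 128 ± 10.8 and 119 ± 10.96 FPKM (limma adjusted p = 0.615).

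Of 19 LXR partners and targets 8 were higher and 11 lower, with a median log2 fold change of -0.06. Fasn, the fatty acid synthase, was at 26.8 ± 3.38 in WT and 41.5 ± 10.1 FPKM in KO (limma adjusted p = 0.175). Lpcat3, which remodels phosphatidylcholine, was at 55.9 ± 2.78 and 49.3 ± 4.19 FPKM (limma adjusted p = 0.309), and the corepressor gene Ncor1 at 47.3 ± 2.40 and 41.1 ± 4.66 FPKM (limma adjusted p = 0.325). Of 20 transcription factors and coactivators of hepatic lipoprotein genes 9 were higher and 11 lower. Srebf2, the sterol-regulated factor of cholesterol synthesis, lay between 8.74 and 11.23 FPKM in WT and between 11.86 and 15.3 FPKM in KO. Its log2 fold change was 0.45 (95% CI 0.25 to 0.65, limma adjusted p = 0.104). Ppargc1a was at 3.76 ± 0.569 and 5.398 ± 1.43 FPKM (limma adjusted p = 0.285), and Xbp1 of the unfolded protein response at 142 ± 18.0 and 123 ± 11.7 FPKM (limma adjusted p = 0.408).

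**Figure D4:**
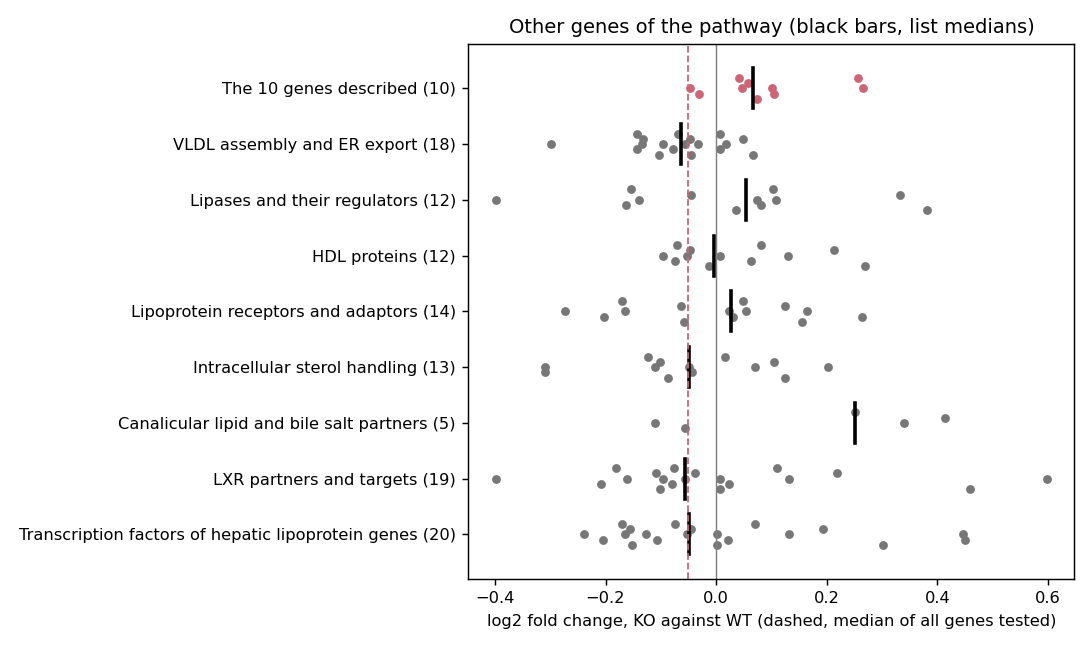
Log2 fold change in KO against WT of each tested gene (points), by list, with the number of genes tested in brackets, the list median as a black bar and the median of all genes tested, -0.05, as a dashed line. The 10 genes described (red) lie between -0.05 and 0.27, and Fasn at 0.60, among the LXR partners and targets, is the point farthest to the right.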

How the data were processed

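Poly(A)-selected liver RNA of WT and KO female mice was profiled by paired-end sequencing, with 5 libraries per genotype. The authors deposited FPKM per gene, rounded to 2 decimals, in 1 column per library, which was matched to the labels by library name. The build mm10 and the tools STAR, RSEM, DESeq, DESeq2 and R 4.0.2 are listed, per the submitters' processing notes. The sources used here do not give their roles, the annotation or the strand setting, while the labels' protocols name a directional cDNA kit, so reads where exons of opposite strands overlap may not be separated.

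FPKM carry no counts, so log2(FPKM + 0.5) was tested with limma 3.58.1 under R 4.3.3 (two-sided, its prior both robust and with a trend) over the 12395 genes averaging 0.5 FPKM or more, with Benjamini-Hochberg adjustment over all of them. Fold changes are on that scale. The script was tested on simulated data. Exact permutation tests used all 252 regroupings of 5 against 5 libraries. Correlation p-values came from 100000 resamples. The steps between low values of genes with 1 transcript of 350 to 1000 bases gave an estimated depth of 21200000 to 28100000 fragments in each library. Depth and mean fragment length were chosen to bring as many of these values as possible near whole numbers of fragments. At that choice 93.7% to 96.9% of them fell within 0.1 fragment of a whole number, a share that is no separate check of the depth. At the exon lengths of GENCODE M21 (GRCm38) the smallest estimated number of fragments behind a member's value is then about 1340, for Abcg5, a counting error of 2.74%.

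The 10 members, the pathway lists and the marker lists were chosen with earlier results of these data known. 1 gene of these lists is not reported here and was left out of their counts. Named genes are the members, Etnppl, up to 3 genes of lowest p in each pathway list and the 3 genes most like Abcg5 and Abcg8. Gata4, Gata6, Nr1h2, Trmt10a and Ctsa were added after their values were seen. Alternatives were pseudocounts of 0.1 and 1, other filters and scalings, a plain prior, weights per array, a replicate block and each library left out. Python 3.11.15 with matplotlib 3.10.9 made the plots.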

Additional observations from a re-analysis of the deposited data

Results flagged for a closer look

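Each of the 20 groups of 5 libraries (10 genes, 2 genotypes) was checked for a lowest or highest library apart from the rest. A gap to the nearest library of more than 0.71 of the group's range was found in 3 groups, each time for the highest library. By chance about 1 in 20 groups would show such a gap at either end. Lcat in WT replicate 1 was at 721.39 FPKM, the next WT library being at 683.1 FPKM. Pltp was also highest in WT replicate 1, at 55.58 FPKM against 38.05 FPKM in the next. Scarb1 in KO replicate 4 was at 106.21 FPKM and the next KO library at 90.82 FPKM, and without KO replicate 4 the Scarb1 log2 fold change was 0.21 (limma adjusted p = 0.349).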

How the results depend on the processing

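Over 210 refits of the 10 genes (21 each), 0 gave an adjusted p under 0.05, and 5 genes (Lipc, Lcat, Scarb1, Nr1h3 and Tm6sf2) kept their sign in all of theirs. Median-of-ratios scaling turned Mttp to 0.022 and Abca1 to 0.0037, and array weights turned Abca1 to 0.0078. Leaving out a library gave -0.10 to 0.0086 for Mttp, -0.12 to 0.041 for Abca1, -0.024 to 0.21 for Pltp, -0.052 to 0.10 for Abcg5, -0.029 to 0.15 for Abcg8 and -0.077 to 0.0083 for the log2 ratio of Abcg5 to Abcg8. It gave r of 0.84 to 0.93 for Abcg5 with Abcg8, all past the threshold, and 0.40 to 0.80, 0.60 to 0.85, 0.0081 to 0.48 and -0.17 to 0.33 for Nr1h3 with Abcg5, Abcg8, Abca1 and Pltp. Median-of-ratios scaling gave r = -0.048 for Nr1h3 with Abca1. Over all genes 8 were called, 5 with no filter, 5 with no trend or robust prior, 18 with array weights and 4 to 18 with a library left out, the 18 without WT replicate 2. At an unadjusted p under 0.05 the split was 334 higher and 1124 lower, and 655 and 632 with median-of-ratios scaling. With the replicate number as a block 5 genes were called and Scarb1 had an adjusted p of 0.307. Deviations of same-numbered libraries correlated at -0.025 to 0.20, above 0.1 for numbers 1 and 5 only, and 5 of 10 libraries correlated best with their own number, a hint from the data and not the design, so the samples were not treated as pairs. The causes of these shifts were not tested. FPKM give the depth only as an estimate.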

Other observations

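Among 12394 other genes tested, Abcg8 ranked 2 by Pearson's r to Abcg5 across the 10 libraries, and Abcg5 ranked 4 by r to Abcg8. The 3 genes with the highest mean r to both were Zc3h18 (0.926), which encodes a nuclear RNA-processing protein, the adhesion receptor gene Adgrg2 (0.834) and the calcium channel gene Itpr1 (0.831). Zc3h18 spanned only 13.37 to 16.99 FPKM, lowest in WT replicate 2 and highest in KO replicate 4, as Abcg5 was. Adgrg2 lay between 0.3 and 1.68 FPKM. These ranks are a description of 10 libraries that share their scaling, and no test was made.

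WT replicate 2 held the lowest value of all 10 libraries for 5 of the 10 genes, Mttp, Lipc, Abcg5, Nr1h3 and Tm6sf2, and the highest for Abca1. It was also the library with the highest Etnppl, at 56.55 FPKM. KO replicate 2 held the highest value for 4 genes, Lcat, Lipc, Nr1h3 and Tm6sf2, and KO replicate 4 for 3, Scarb1, Abcg5 and Abcg8.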
